A study of Homo sapiens with 20 samples.

Results

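Distal CUT&RUN regions with none of 3 motifs were described: no palindromic E-box (CACGTG), no hypoxia response element (HRE) core (ACGTG or GCGTG) and no AP-1 consensus (TGACTCA or TGAGTCA). Peaks of 4 lists that overlapped by at least 1 bp were merged into 8280 regions, and the summit of a region was that of its peak with the highest −log10 p. A region was taken when its summit lay more than 1000 bp from every annotated transcript start and no motif was found, on either strand, with all of its bases within 100 bp of the summit. This left 2100 of 8280 regions (25.4%). Of the 4548 distal regions, 4338 had no E-box, 2727 had neither an E-box nor an HRE, and 2100 also had no AP-1 site. These 2100 regions are called motif-free distal regions below, and the 201 bases around a summit are called its window. The rule set no limit on strength, but −log10 p chose the summit, and the presence of a region came from the peak lists. Where lists shared a region, its window thus followed the peak with the highest −log10 p, which also measures strength below.

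The study asked where the circadian factor BMAL1 and the hypoxia factor HIF2α lie on chromatin in A498 cells, a line of clear cell renal cell carcinoma, and how this differs when BMAL1 is depleted. CUT&RUN releases and sequences chromatin fragments cut by a nuclease that an antibody holds at its target. The labels give 20 libraries in 6 groups: for each of the hairpins shCNT and shBMAL1 there are 4 libraries with a BMAL1 antibody, 4 with a HIF2α antibody and 2 with IgG. Cells of all groups were infected with lentivirus carrying a pLKO.1 hairpin and kept in puromycin; shCNT cells, labelled WT, had a scramble hairpin and shBMAL1 cells, labelled BMAL1 knockdown, had a hairpin against BMAL1, and the antibodies were rabbit monoclonals to BMAL1 or HIF-2α or a rabbit IgG isotype. GEO attaches a peak list to a single library in each of the 4 groups made with a BMAL1 or HIF2α antibody, so no replicate error could be given, and a list is named below by hairpin and antibody. Intervals are 95% Wilson intervals for shares and Newcombe intervals for differences of shares, and they cover counting error only. Whether replicates were pooled for a list, and which control it had, is not stated.

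E-boxes are the sites of BMAL1 paired with CLOCK, and HREs are the sites of a HIFα subunit paired with ARNT. AP-1 sites are bound by JUN and FOS dimers, which are common occupants of enhancers in cultured epithelial cells. Distal elements are regulatory stretches away from promoters, and a factor can be found at them through its own motif, through another bound protein, or because open chromatin is cut and recovered more easily than closed chromatin.

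The regions that the values below turn on are shown with their sequence, read from GRCh37 (the authors' hg19) on the plus strand. The first 3 are strong regions that lacked the motifs within the window and had an HRE just beyond it, so each is drawn out to that HRE, which is in capitals. They are chr3:133461475-133461702 near the start of TF, chr20:45587975-45588273 in an intron of EYA2, and chr7:55253850-55254115 in an intron of EGFR. The EGFR region also had an AP-1 site nearer its summit than the HRE, at 107 bp and beyond the part drawn.
TF: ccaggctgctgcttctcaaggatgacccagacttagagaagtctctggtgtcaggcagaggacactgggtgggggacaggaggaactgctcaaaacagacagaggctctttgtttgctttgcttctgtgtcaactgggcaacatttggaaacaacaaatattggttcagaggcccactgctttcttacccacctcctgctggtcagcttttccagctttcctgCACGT
EYA2: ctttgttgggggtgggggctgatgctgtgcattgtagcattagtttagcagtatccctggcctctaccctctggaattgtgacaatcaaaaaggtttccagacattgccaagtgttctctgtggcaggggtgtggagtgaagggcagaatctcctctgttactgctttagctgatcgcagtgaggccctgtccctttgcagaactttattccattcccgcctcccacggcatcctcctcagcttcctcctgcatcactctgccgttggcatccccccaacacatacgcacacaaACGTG
EGFR: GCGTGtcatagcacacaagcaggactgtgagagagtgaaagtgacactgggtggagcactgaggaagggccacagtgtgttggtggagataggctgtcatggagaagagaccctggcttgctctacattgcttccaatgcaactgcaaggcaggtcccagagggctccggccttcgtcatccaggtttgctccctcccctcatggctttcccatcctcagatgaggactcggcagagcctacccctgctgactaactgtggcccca

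One of the next 3 windows, on chr9, also had an HRE beyond the part drawn, 141 bp from its summit. These 3 windows are shown for other traits, with the other motifs that were searched in capitals. They are chr9:107830171-107830371, called in all 4 lists and holding the AP-1 variant TGAATCA; chr19:30335817-30336017, the strongest motif-free distal region of the shBMAL1 BMAL1 list and GC-rich, with Sp1 boxes (GGGCGG); and chr7:74203086-74203286 in an intron of NCF1, where 80.1% of the window's 31-base words occur elsewhere in the genome.
chr9: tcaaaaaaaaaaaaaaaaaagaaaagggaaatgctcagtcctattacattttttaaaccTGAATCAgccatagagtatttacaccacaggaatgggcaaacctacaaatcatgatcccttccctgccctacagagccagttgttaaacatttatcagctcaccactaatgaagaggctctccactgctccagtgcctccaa
chr19: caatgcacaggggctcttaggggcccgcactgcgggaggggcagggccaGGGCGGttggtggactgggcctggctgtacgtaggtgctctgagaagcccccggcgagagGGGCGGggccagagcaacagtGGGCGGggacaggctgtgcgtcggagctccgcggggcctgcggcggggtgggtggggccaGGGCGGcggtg
NCF1: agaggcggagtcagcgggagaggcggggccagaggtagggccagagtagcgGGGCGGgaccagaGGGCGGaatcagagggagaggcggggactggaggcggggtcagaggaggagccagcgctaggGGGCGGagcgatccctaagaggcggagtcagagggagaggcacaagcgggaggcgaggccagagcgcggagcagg

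The last window, chr11:13388179-13388379, holds a coding exon of BMAL1 itself, and its capitals mark that exon, with intron in lower case.
BMAL1 exon: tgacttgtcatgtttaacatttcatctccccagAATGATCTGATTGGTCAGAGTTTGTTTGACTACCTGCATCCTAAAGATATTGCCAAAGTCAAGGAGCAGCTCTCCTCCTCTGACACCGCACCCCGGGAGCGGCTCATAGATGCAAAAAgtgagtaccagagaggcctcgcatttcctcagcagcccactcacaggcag

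Most motif-free distal regions were called once. In all, 1665 of 2100 regions (79.3%, 77.5 to 81.0) were called in 1 list, where the share over all 8280 regions was 66.6%. A further 319 (15.2%) were called in 2 lists and 97 (4.62%) in 3. Only 19 (0.905%, 0.58 to 1.41) were called in all 4 lists, against 2.9% of all regions.

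Against distal regions with an HRE, the share called once was 22.6 percentage points higher (19.6 to 25.6; 56.7% of 1611). Against promoter regions (summit within 1000 bp of a start) with neither an E-box nor an HRE it was 8.63 points higher (5.81 to 11.5). Against distal regions with an AP-1 site and no E-box or HRE, the difference of 2.89 points had an interval that included 0 (−0.737 to 6.75). When motifs were sought in the whole region, the difference from AP-1 regions was 9.84 points (6.48 to 13.4; 88.5% against 78.7%).

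The lists contributed unequally. The shBMAL1 BMAL1 list held 1180 motif-free distal regions (56.2%, with 51.3% of all regions in that list). The shBMAL1 HIF2α list held 672 (32.0%, 38.4% of all regions), the shCNT BMAL1 list 494 (23.5%, 28.3% of all regions) and the shCNT HIF2α list 324 (15.4%, 28.3% of all regions). Only the shBMAL1 BMAL1 list thus held a larger share of these regions than of all regions.

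Regions called in 1 list only numbered 854 for shBMAL1 BMAL1 (40.7%, 30.8% over all regions), 415 for shBMAL1 HIF2α (19.8%, 16% over all), 253 for shCNT BMAL1 (12.0%, 11% over all) and 143 for shCNT HIF2α (6.81%, 8.83% over all). The knockdown lists held more of them than the control lists, in the same order as over all regions. The lowest background behind any peak of a list was taken as its genome level. It was 0.0839 and 0.109 fragments in the shBMAL1 BMAL1 and shBMAL1 HIF2α lists, and 0.168 and 0.209 in the shCNT lists. The smallest pileup, the number of overlapping fragments at a summit, that was called was 3 in the shBMAL1 lists and 4 in the shCNT lists. With 1 list per group, the hairpin, the depth and the library cannot be told apart.

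**Figure D1:**
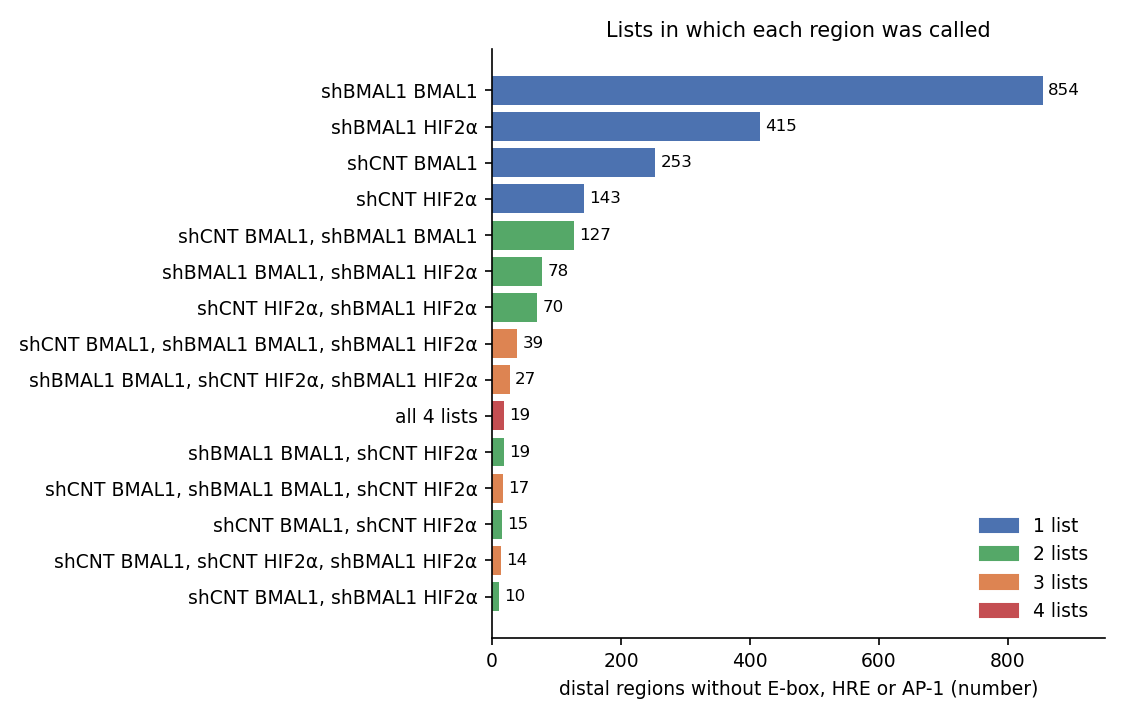
Number of motif-free distal regions (horizontal axis) by the exact set of lists in which each was called (vertical axis), coloured by the number of lists. The shBMAL1 BMAL1 list alone holds 854 regions and all 4 lists together 19.

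By antibody, 1234 regions (58.8%) were called only in BMAL1 lists, 628 (29.9%) only in HIF2α lists and 238 (11.3%, 10.0 to 12.8) with both antibodies. Over all regions the shares were 49.1%, 33.9% and 17.1%. Distal HRE regions divided the other way, with 29.1% in BMAL1 lists only and 50% in HIF2α lists only. Distal AP-1 regions leaned further to BMAL1 lists, with 69.1% there only (motif-free minus AP-1, −10.3 points, −14.4 to −6.03). Of the regions called in exactly 2 lists, 127 were in both BMAL1 lists (6.05% of motif-free distal regions, 7.27% over all regions). Another 78 were in both shBMAL1 lists (3.71%, 3.85% over all), 70 in both HIF2α lists (3.33%, 9.05% over all) and 15 in both shCNT lists (0.714%, 1.38% over all). The BMAL1 pair was the most frequent of these among motif-free distal regions and the HIF2α pair over all regions. Each of the 4 pairs, the BMAL1 pair included, had a lower share than over all regions.

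Of the 494 motif-free distal regions of the shCNT BMAL1 list, 202 (40.9%) were also in the shBMAL1 BMAL1 list, where the share over all shCNT BMAL1 regions was 47.7%. Of the 324 regions of the shCNT HIF2α list, 130 (40.1%) were also in the shBMAL1 HIF2α list, against 55.8% of all shCNT HIF2α regions. The difference from distal HRE regions was −12.2 points for BMAL1 (−19.1 to −5.09; 53.1% of HRE regions) and −29.2 points for HIF2α (−35.4 to −22.7; 69.4%). From distal AP-1 regions it was −6.94 points for BMAL1 (−15.7 to 1.82) and −4.61 points for HIF2α (−16.9 to 7.34). From promoter regions without E-box or HRE it was −6.52 points for BMAL1 (−12.6 to −0.406) and 1.12 points for HIF2α (−6.07 to 8.33). The low HIF2α share was thus not particular to motif-free distal regions. Strength went with being found again. With the shCNT HIF2α list divided into 4 equal parts by −log10 p, the share was 18.9%, 31.2%, 66.2% and 83.3% from the weakest to the strongest part. The same parts of distal HRE regions gave 31.7%, 50.7%, 69.0% and 94.3%. For BMAL1 the rise was smaller, with 34.0%, 35.2%, 44.5% and 57.3% of motif-free distal regions across the parts of the shCNT BMAL1 list.

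Where a region was called in both lists of an antibody, the summits of the 2 lists lay a median of 106.5 bp apart for BMAL1 (202 regions) and 103 bp for HIF2α (130 regions). They lay within 100 bp of each other in 49.0% and 48.5% of these regions. A summit could thus move by about the reach of the motif window between lists. Requiring peaks to lie within 200 bp of the region's summit left 34.4% of the BMAL1 regions and 33.0% of the HIF2α regions in both lists.

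Motif-free distal peaks were weak in every list. A peak was placed by its −log10 p among all peaks of its list, and 15.7% of the 2673 peaks were in the strongest 25%. By list the shares were 16.6% (shCNT) and 19.2% (shBMAL1) for BMAL1, and 11.1% for HIF2α with either hairpin. Ties in the lists put 25.6% and 26.8% of all BMAL1 peaks and 25% and 23.6% of all HIF2α peaks in that class.

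Distal HRE peaks were in the strongest 25% in 32.1% of cases (motif-free minus HRE, −16.4 points, −18.7 to −14.1). The difference had this sign in each list, at −6.3 points (−12.1 to −0.714) in shCNT BMAL1, −5.53 points (−9.57 to −1.62) in shBMAL1 BMAL1, −27.3 points (−32.1 to −22) in shCNT HIF2α and −24.6 points (−28.4 to −20.6) in shBMAL1 HIF2α. Distal AP-1 peaks were in the strongest 25% in 19.4% of cases over the 4 lists (−3.68 points, −6.82 to −0.745), but the classes fall unequally over the lists, and by list only shBMAL1 BMAL1 had an interval without 0 (−5.27 points, −10.1 to −0.78). In the HIF2α lists AP-1 peaks were there in 11.7% (shCNT) and 9.15% (shBMAL1), near the 11.1% of motif-free peaks. The pooled order also turned when peaks under a −log10 p of 8 were left out (15.6% of motif-free against 12% of AP-1 peaks), with an interval that included 0. Promoter peaks without E-box or HRE were in the strongest 25% in 25.5% and 26.8% of cases in the shCNT and shBMAL1 BMAL1 lists, more than motif-free peaks (−8.93 points, −13.9 to −3.91, and −7.59 points, −11.3 to −3.95). In the HIF2α lists they were there in 11% and 11.7%, with differences of 0.145 points (−4.47 to 4.91) and −0.568 points (−4.53 to 3.16), so the low share in HIF2α lists was not particular to motif-free distal peaks. Distal HRE peaks themselves were in the strongest 25% in 38.4% and 35.7% of cases in the shCNT and shBMAL1 HIF2α lists, against 22.9% and 24.7% in the BMAL1 lists.

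**Figure D2:**
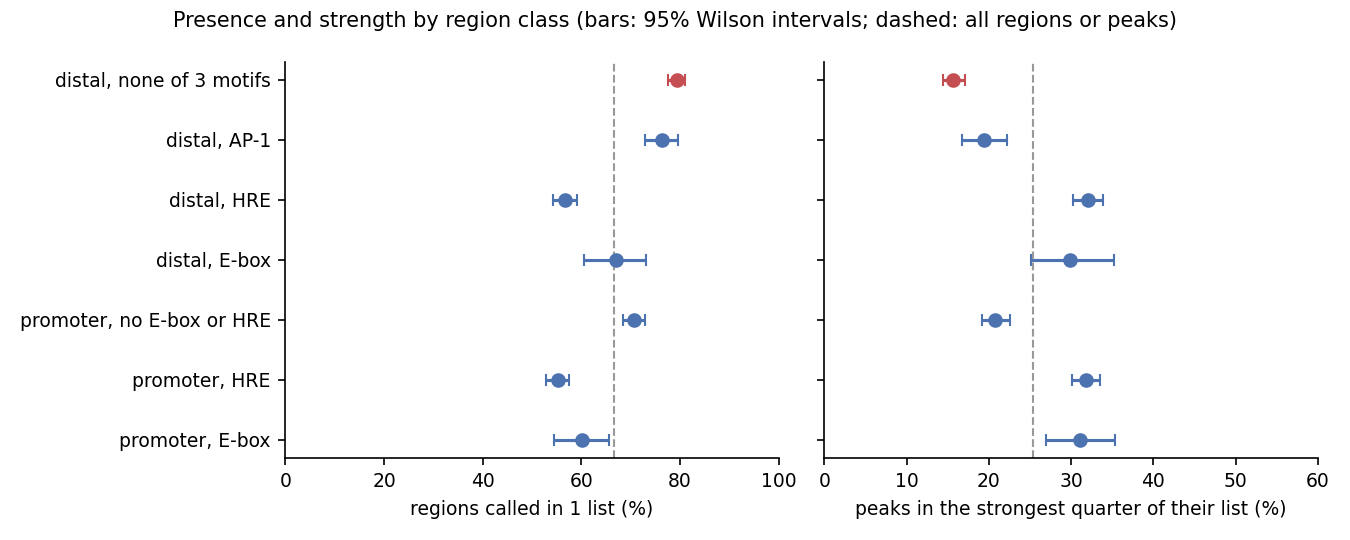
Share of regions called in 1 list (left) and share of peaks in the strongest 25% of their list (right) for 7 classes of region, with 95% Wilson intervals and dashed lines at the share over all regions or peaks. Motif-free distal regions, in red, have 79.3% called in 1 list and 15.7% of peaks in the strongest 25%.

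The median pileup of motif-free distal peaks was 6 fragments in both shCNT lists, 5 in shBMAL1 BMAL1 and 4 in shBMAL1 HIF2α. Peaks at the smallest pileup of their list made up 15.6% (shCNT) and 21.2% (shBMAL1) of motif-free BMAL1 peaks, against 10.5% and 15.8% of all BMAL1 peaks. For HIF2α they made up 17.9% and 30.5%, against 9.61% and 14.6% of all peaks. Median peak widths lay between 194 and 233 bp.

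**Figure D3:**
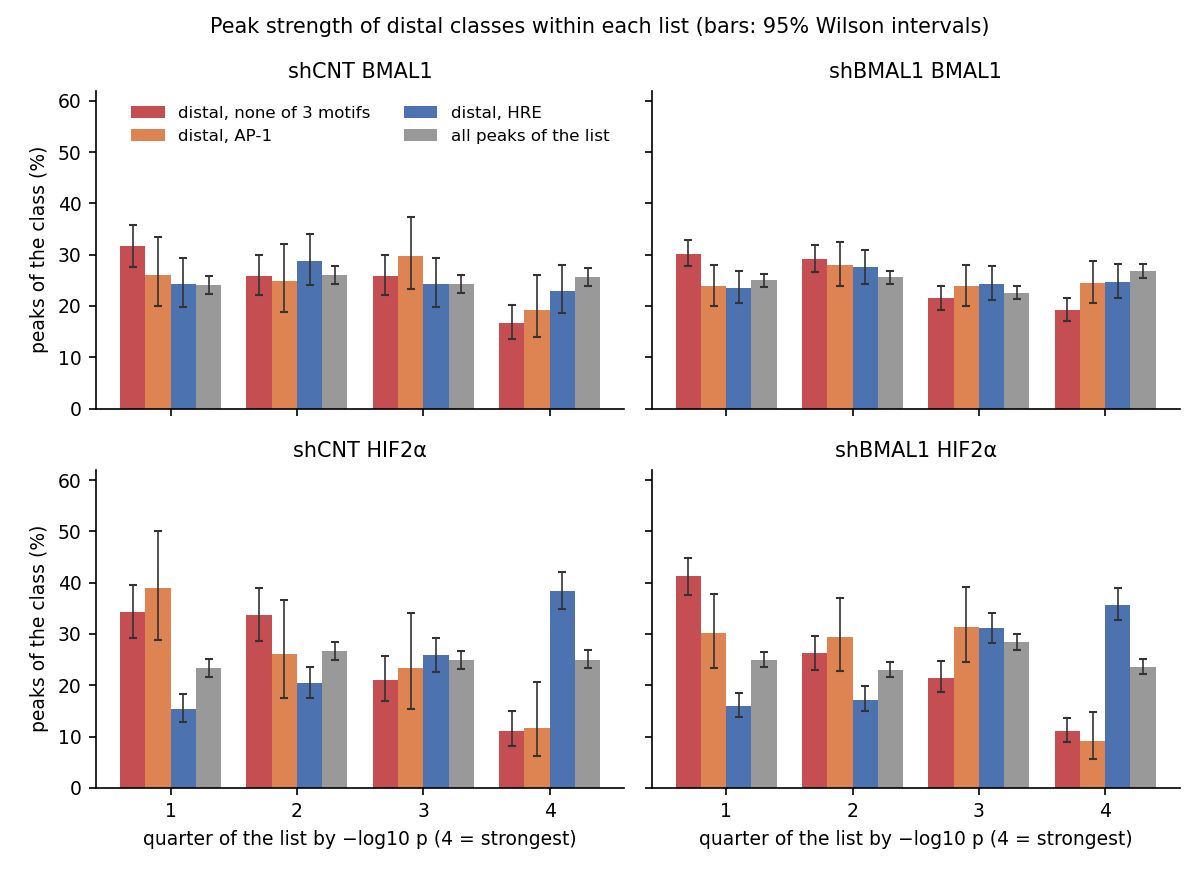
Share of the peaks of 3 distal classes and of all peaks (vertical axis, percent, 95% Wilson intervals) in each of 4 equal parts of a list ordered by −log10 p, 1 panel per list. In both HIF2α lists motif-free peaks thin out to 11.1% in the strongest part while distal HRE peaks reach 38.4% and 35.7%.

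The strongest motif-free distal region of the shCNT HIF2α list was the one near TF, which encodes the iron carrier transferrin. It spanned chr3:133461238-133462065, in an intron of ENSG00000291042 and 3309 bp from the nearest TF start, and was in all 4 lists. Its HIF2α pileup was 43 fragments with shCNT and 27 with shBMAL1, and 5 and 6 in the shCNT and shBMAL1 BMAL1 lists. The HIF2α values put it at percentiles 99.13 and 98.98 of their lists and the BMAL1 values at 25.1 and 5.41. Its background in shBMAL1 BMAL1 was 7.023 times the genome level. The nearest HRE, shown above, was 123 bp from the summit.

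The intron of EYA2, which encodes a transcriptional coactivator with phosphatase activity, held a region at chr20:45587614-45588497 that was in both HIF2α lists and neither BMAL1 list. Its pileup was 24 with shCNT and 52 with shBMAL1, the highest of the motif-free regions of that list, and its nearest HRE was 194 bp from the summit. It was at percentiles 96.17 and 99.92 of the lists. Pileups of lists with different genome backgrounds are not on 1 scale, and with 1 list each no difference between hairpins could be set against replicate error.

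Introns of EGFR, the receptor of epidermal growth factor, held 2 of the 5 regions with the highest median percentile among those called in all 4 lists. At chr7:55253589-55254697 the pileups were 6 and 12 for BMAL1 (shCNT, then shBMAL1) and 15 and 16 for HIF2α. At chr7:55200303-55200851 they were 7, 7, 12 and 15 in the same order. The shCNT BMAL1 peak of this second region was at percentile 5.298 of its list, with a background 5.283 times the genome level. Both had an AP-1 site just outside the window, 107 bp and 153 bp from the summit, and HREs at 161 bp and 242 bp.

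The others of the 5 were the chr9 region, a region 1016 bp from a start of IFNAR2, which encodes a subunit of the type I interferon receptor, and a region in an intron of ZP3, which encodes a glycoprotein of the egg coat. The chr9 region had pileups of 6, 9, 24 and 15 in the order above, and an HRE at 141 bp. The IFNAR2 region had 8, 8, 17 and 12, with an HRE at 120 bp. The ZP3 region had 8, 6, 15 and 9, and a CACGTG that crossed the edge of its window, 97 bp from the summit at its nearest base. With shCNT, each of the 5 regions had a higher percentile in the HIF2α list than in the BMAL1 list. The first EGFR region, for one, was at 80.79 and 48.15. With shBMAL1 the same held except at the first EGFR region, which was at 96.33 in BMAL1 and 95.98 in HIF2α. Across hairpins the order was not always kept: the IFNAR2 region was at 82.57 in both shCNT BMAL1 and shBMAL1 HIF2α.

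In BMAL1 chromatin, leaving aside exons of BMAL1, the highest pileups were at chr19:30335303-30336265, 3192 bp from the start of ENSG00000286538. They were 18 in shCNT BMAL1 and 56 in shBMAL1 BMAL1, and the region was in neither HIF2α list. Its window had a GC content of 74.6% with 16 CpG sites, and its nearest HRE was 416 bp away. Its local background was 1.566 and 2.455 times the genome level.

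The 3 strongest regions found in the shBMAL1 BMAL1 list alone were also GC-rich: NCF1, a subunit of the phagocyte NADPH oxidase (pileup 13, GC 71.1%), GNG8, a G protein subunit (pileup 14, GC 71.6%), and ERCC1, a DNA repair endonuclease subunit (pileup 12, GC 65.7%). All 3 lay in introns. The 3 strongest in shCNT HIF2α alone, in introns of STX16 and H2AZ1-DT and near SNHG12, had pileups of 11, 12 and 10. The 3 strongest in shBMAL1 HIF2α alone, near MIR3197 and CCR3 and in an intron of CFAP20DC-DT, had 13, 9 and 9. Each of these stood below the strongest regions shared between lists.

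The highest values of all were on exons of BMAL1 and were found in 1 list. Summits of 7 motif-free distal regions lay on coding exons of BMAL1 between chr11:13375856 and chr11:13408344, and all 7 were in the shCNT BMAL1 list alone. Their pileups ran from 294 to 601 fragments (median 425), where the highest of any other motif-free distal region of that list was 18. The local background that the caller used there was also high, 211 to 351 times the genome level, so that the fold stayed between 7.86 and 11.7. Peaks began 0 to 8 bp from the start of an exon, and 6 of the 7 ended 30 to 41 bp past its end, as in the exon printed above. Over all classes, 14 regions had their summit on a BMAL1 exon. What brought fragments with exon boundaries to this list, and to its background, was not tested. Leaving out the 7 regions moved no share of the motif-free regions beyond its interval.

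Local background is the number of fragments the caller expected at a summit, and it was called raised when more than 1.01 times the genome level of its list. It was raised at 73.1% (shCNT) and 53% (shBMAL1) of motif-free BMAL1 peaks, against 71.2% and 57.8% of all BMAL1 peaks. For HIF2α it was raised at 62% and 38.6%, against 62.8% and 50.3%. The shCNT lists had raised backgrounds more often than the shBMAL1 lists. Motif-free minus distal HRE peaks gave −15 points in shBMAL1 HIF2α (−19.8 to −10.1) and −5.56 points in shBMAL1 BMAL1 (−10.2 to −0.831). In the shCNT lists the intervals included 0, at 5.66 points for BMAL1 (−0.777 to 12.2) and −3.17 points for HIF2α (−9.59 to 3.1).

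The median ratio to the genome level was 1.29 (shCNT) and 1.15 (shBMAL1) for BMAL1, and 1.09 and 1 for HIF2α. A background of more than 5 times the genome level stood behind 22 shCNT (4.45%) and 43 shBMAL1 (3.64%) peaks of BMAL1, and 3 (0.926%) and 15 (2.23%) of HIF2α. In shCNT BMAL1, 7 of the 22 were the BMAL1 exons, and the highest ratio of any other peak there was 10.6.

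Background ratios were alike more often between antibodies of 1 hairpin than between hairpins of 1 antibody. Of the 65 motif-free distal regions in both shCNT lists, 44 had a raised background in both, and the ratio was the same within 1% in 35. Of the 163 regions in both shBMAL1 lists, 78 were raised in both and 124 had the same ratio. Across hairpins the ratio was the same in 22 of 202 regions of the BMAL1 lists and in 22 of 130 of the HIF2α lists. Whether lists of 1 hairpin shared a control is not stated, and the counts of like ratios include regions at the genome level in both lists. Regions called in 1 list had a raised background in 48.6% of cases and those called in 2 or more lists, with more chances to show one, in 77.7%.

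Repeated sequence was rare at motif-free distal summits, as it was at the summits of all regions. The reference used has no repeat marks, so a window was called repeated when at least 50% of its 31-base words occurred more than once in GRCh37 on either strand. This was so for 33 of 2100 windows (1.57%, 1.12 to 2.2), against 504 of 4200 windows (12.0%) placed 2000 bp to either side of the same summits, a difference of −10.4 points (−11.5 to −9.29). The measure sees recent or near-identical copies, and old diverged repeats have words of their own. Reads that fit several places were handled in the authors' alignment in a way that this measure does not see, and its part in the low share was not tested.

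Over all regions 1.4% of windows were repeated, near the share of motif-free windows. Distal HRE windows were repeated in 3.10% of cases and distal AP-1 windows in 0.478%. Any repeated word at all was found in 13.0% of motif-free windows and 10.8% of all windows. A tandem repeat of 20 bp or more, of a unit of up to 6 bases, was found in 1.14% and 1.27%. Of the 33 repeated windows 31 were called in 1 list, as were 79.3% of all motif-free distal regions. These were 12 of the 415 regions of shBMAL1 HIF2α alone and 11 of the 854 of shBMAL1 BMAL1 alone. A further 4 were among the 253 of shCNT BMAL1 alone and 4 among the 143 of shCNT HIF2α alone. The 33 windows lay on 17 chromosomes and 18 lay in gene bodies. A raised background was not a mark of them, since 0.697% of regions with a raised background and 2.63% of regions without one were repeated. Words of the NCF1 window had a median of 3 copies in the genome.

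Other motifs were counted in the 2100 windows and in 3155 windows of the same length, 2000 bp away, that also lacked the 3 motifs. The AP-1 variant TGAATCA was in 10.5% of motif-free windows and 2.98% of flanking windows (difference 7.54 points, 6.14 to 9.03). The RUNX motif AACCACA was in 9.29% against 3.58%, the Sp1 box GGGCGG in 7.38% against 3.55%, the TEAD motif ACATTCC in 6.57% against 3.14%, and the FOX motif TGTTTAC in 4.86% against 2.73%. The motif of CTCF, an insulator factor, was in 1.38% against 0.222%. The intervals of these 6 differences excluded 0. Over the windows of all 8280 regions, promoters included, the Sp1 box was in 27.4%, far above its share in motif-free windows, while TGAATCA was in 5.93% and RUNX in 5.91%. These are the binding letters of families that occupy open chromatin in many epithelial cells, and a match is not a bound site.

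Of the 2 non-canonical E-boxes searched, CAGCTG was more frequent than in flanks (12.5% against 8.91%, difference 3.62 points, 1.91 to 5.38) and CACCTG less frequent (10.6% against 16.5%, −5.93 points, −7.75 to −4.05). In windows without any repeated word the latter difference came down to −3.08 points (−5.04 to −1.11), with 9.85% of 1827 windows against 12.9% of 2180, while that of TGAATCA stayed at 7.49 points. The nuclear receptor letters AGGTCA had an interval that included 0 over all windows (15.6% against 13.9%) and excluded it in windows without repeated words (15.4% against 11.5%). The intervals also included 0 for the ETS motif CCGGAAG, the NF-Y motif CCAAT, the GATA motif AGATAAG, the CEBP motif TTGCNNAA, the cyclic AMP response element TGACGTCA and the D-box TTATGTAA, and for the motifs of HNF1 and NFI. The glucocorticoid receptor motif was in 0 of 2100 windows, which allows a share of up to 0.183%.

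**Figure D4:**
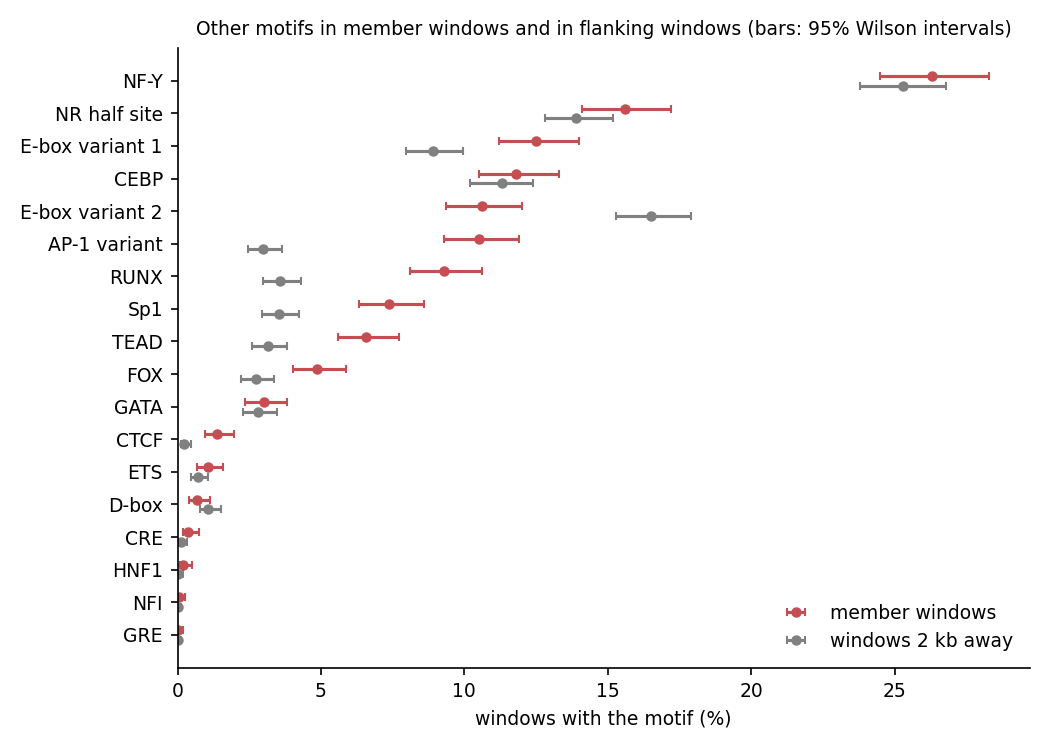
Share of windows with each of 18 motifs (horizontal axis, percent, 95% Wilson intervals) in the 2100 motif-free distal windows, in red, and in 3155 flanking windows, in grey. E-box variant 1 is CAGCTG, E-box variant 2 is CACCTG, and the AP-1 variant, RUNX, Sp1, TEAD and FOX lie to the right of their flanks.

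Between antibodies, the Sp1 box was in 8.27% of regions of BMAL1 lists only and 3.98% of regions of HIF2α lists only (4.28 points, 1.97 to 6.38). TGAATCA was in 11.3% and 8.28% (3.06 points, 0.138 to 5.75), and CCAAT in 24.5% and 29.3% (−4.83 points, −9.17 to −0.6). With 18 motifs compared, about 1 interval in 20 excludes 0 by counting error alone. The GC content of windows was a median of 45.8% for motif-free distal regions, 43.3% for the flanking windows and 53.2% for all regions.

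The 3 motifs of the rule were still met just outside the window. In the 100 bp beyond it on either side, 101 to 200 bp from the summit, an AP-1 site was found in 16.4% of regions and 3.42% of flanking positions (difference 13.0 points, 11.3 to 14.7). An HRE was found in 25.6% against 19.8% (5.81 points, 3.50 to 8.15). An E-box was found in 3.10% against 2.44%, with an interval that included 0. At 201 to 300 bp the AP-1 share was 7.57%, and at 901 to 1000 bp it was 3.67%. The HRE share fell less, to 23.5% and 22.2% at the same distances, where it stayed above the 19.8% of flanking positions. In regions of BMAL1 lists only it was 21.2% at 101 to 200 bp and 22.6% at 901 to 1000 bp. In regions of HIF2α lists only it was 30.1% and 19.3%. In 550 regions (26.2%), 1 of the 3 motifs lay elsewhere in the called region, so these regions are motif-free only within the window.

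HREs beyond the window went with the HIF2α lists. Of the 70 regions called in both HIF2α lists and no BMAL1 list, 42 (60%, 48.3 to 70.7) had an HRE 101 to 200 bp from the summit. Of the 127 regions called in both BMAL1 lists and no HIF2α list, 29 (22.8%, 16.4 to 30.9) had one, a difference of 37.2 points (23 to 49.6). Over all regions of 1 antibody only, including those of a single list, the shares were 30.1% of 628 for HIF2α and 21.2% of 1234 for BMAL1, a smaller difference of 8.94 points (4.76 to 13.2). AP-1 sites in the same ring were found in 13.5% and 17.1% of these regions (−3.56 points, −6.86 to −0.0437), and in 8.57% and 18.1% of the regions in both lists of an antibody, where the interval included 0. Further out, in the regions of both lists, the HRE shares met: at 301 to 400 bp they were 24.3% and 29.9%.

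Strength showed the same contrast. In the shCNT HIF2α list, 61.1% of the 36 regions in the strongest 25% and 30.6% of the 111 in the weakest 25% had an HRE in the ring (30.5 points, 11.9 to 46.6). In shBMAL1 HIF2α the shares were 50.7% of 75 and 20.7% of 276 (30 points, 17.8 to 41.8). In the BMAL1 lists the strongest and weakest parts had 26.8% and 25% (shCNT) and 25.1% and 23.8% (shBMAL1), with intervals that included 0. AP-1 in the ring was 7.18 points more frequent in the strongest than in the weakest part of shBMAL1 BMAL1 (0.815 to 13.9) and 9.74 points in shBMAL1 HIF2α (0.866 to 20.8). In the shCNT lists the differences were −7.1 points for BMAL1 (−16.2 to 3.52) and 3.23 points for HIF2α (−9.32 to 19.8), so no common direction was seen for AP-1.

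**Figure D5:**
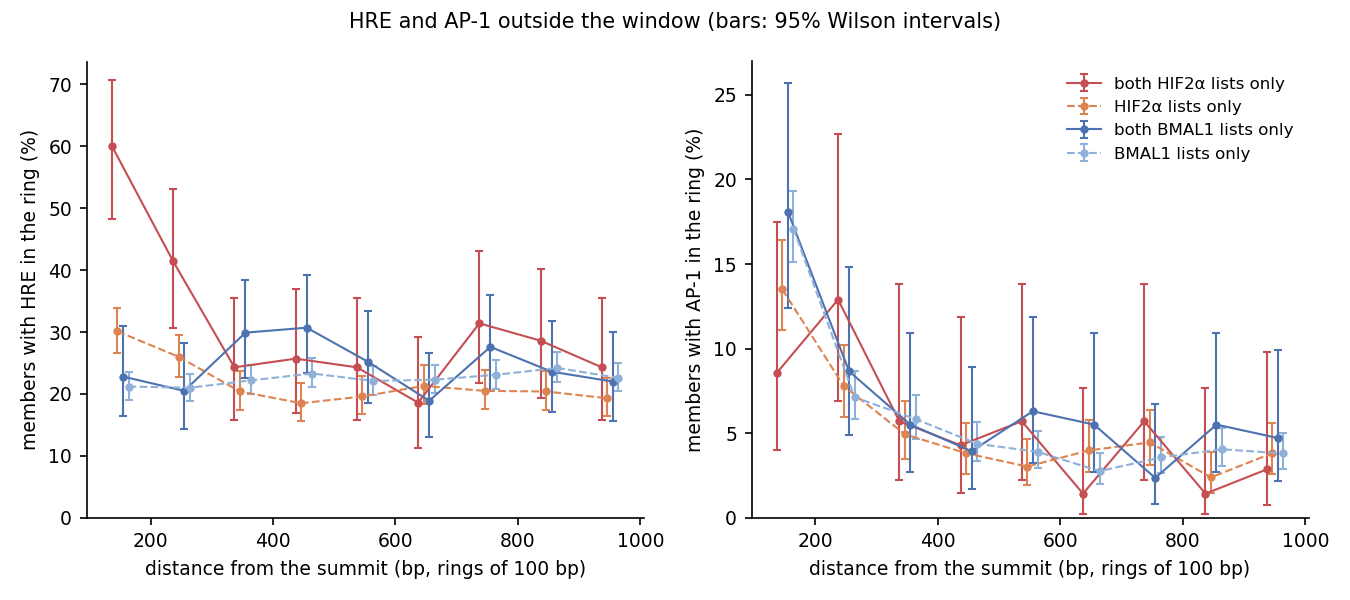
Share of motif-free distal regions with an HRE (left) or AP-1 site (right) in rings of 100 bp between 101 and 1000 bp from the summit, with 95% Wilson intervals, for regions called in both lists of an antibody and none of the other (solid) and in any list of 1 antibody only (dashed). Regions of both HIF2α lists have an HRE in the first ring in 60% of cases, and regions of both BMAL1 lists in 22.8%.

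Most motif-free distal regions lay in introns (1310, 62.4%) or between genes (682, 32.5%), with 25 (1.19%) on coding exons and 83 (3.95%) on other exons. Distal HRE and AP-1 regions had like shares, and the intervals of those differences included 0. The median distance to the nearest transcript start was 8809.5 bp, and 253 regions (12.0%) had another motif-free distal region within 10 kb. Per megabase they were densest on chromosome 17 (1.56) and chromosome 19 (1.44), against 0.692 over the genome. On chromosome 19, however, they made up the smallest share of all regions (14.4%). At the 1000 bp limit itself, 39 regions free of the motifs had a start 900 to 1000 bp away (median −log10 p 7.57) and 33 had one 1000 to 1100 bp away (7.02).

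Genes of 4 lists were searched within 10 kb of the gene body. Of 15 HIF target genes, 13 had a region of any class. Of their 39 regions, 9 at 4 genes were motif-free distal regions (23.1%, near the 25.4% over all regions). EGLN3, a prolyl hydroxylase of HIFα and itself induced by hypoxia, had 4 of these motif-free distal regions, all within its annotated body. One, chr14:34407272-34408197, had pileups of 11 in shCNT HIF2α and 10 in shBMAL1 HIF2α (percentiles 62.11 and 85.87), with an HRE 148 bp from its summit. Each of the other 3 was in 1 list with a pileup of 4 to 6. Of these, chr14:34521088-34521458 and chr14:34528396-34528684 had a start of EGLN3-AS1 as their nearest, 12024 and 19115 bp away. TGFA, a ligand of EGFR, had 2. The first, chr2:70751522-70751939, was in 3 lists with pileups of 6 in shCNT BMAL1, 7 in shBMAL1 BMAL1 and 5 in shCNT HIF2α, and the other was in shBMAL1 BMAL1 alone (pileup 5). SLC2A1, the glucose transporter GLUT1, had 2 regions of pileup 3 in shBMAL1 BMAL1, and DDIT4, an inhibitor of mTORC1, had 1 of pileup 4 in shCNT HIF2α.

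Of 12 clock genes, all with a region of any class, 2 had a motif-free distal region, 1 each among 27 regions (7.41%, against 25.4% over all regions). PER1 and PER2 encode repressors of CLOCK and BMAL1. The PER1 region was in shCNT HIF2α alone (pileup 8) and the PER2 region in shCNT BMAL1 alone (pileup 5). Of 9 AP-1 and immediate early genes, 7 had a region of any class. JUNB, FOSB and FOSL2 had 1 motif-free distal region each among these 14 regions (21.4%). The JUNB region, in an intron of HOOK2 and 1405 bp from the JUNB start, was in all 4 lists, with pileups of 6 and 8 in shCNT (BMAL1, then HIF2α) and 3 and 3 in shBMAL1. The FOSB region, in an intron of ERCC1, had a pileup of 3 in shBMAL1 BMAL1, and the FOSL2 region one of 8 in shBMAL1 HIF2α. None of 9 renal lineage factors had one, but those genes had only 4 regions of any class.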

How the data were processed

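CUT&RUN libraries of A498 cells were assigned to groups from their titles, which give hairpin and antibody. Per the study's methods, Bowtie2 2.5.3 placed the read pairs on hg19, duplicates were dropped, MACS2 2.2.9.1 called peaks (p-value under 1e-05, gaps of up to 400 bp bridged) and bedtools 2.31.1 took out the blacklist. Each of the 4 deposited lists was used as it was, and the other 16 libraries were not analysed on their own. The deposited fold is the authors' linear ratio of summit pileup to local background. Significance is deposited as −log10 of the p-value and of the q-value. The authors' score column, a rounded form of the p-value, was used for nothing, and the summit was taken from the deposited offset.

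Pileup and background were solved for, since the fold is their ratio with 1 added to each and the p-value is a Poisson tail. The pileup came out whole (tolerance 0.001 in −log10 p) for 100% of peaks. The genome level of a list is the lowest background so found, not a value given by the caller. Reads per list are not in the files, so that depth is known only through these backgrounds. No peak ran past a chromosome end of GRCh37. Starts were those of all transcripts of GENCODE release 44 mapped to GRCh37. A soft-masked reference was planned for repeats, but the one used has no soft-masking, and shared 31-base words took its place. Overlap, motif, word and pileup steps were tested on simulated data. Software was pysam 0.24.0, pandas 2.3.3, scipy 1.17.1 and numpy 2.4.6 under Python 3.11.15.

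With 1 list per group there was no test, and shares carry intervals. Regions named in the text were the 10 with the highest −log10 p, the 5 with the highest median percentile among those in all 4 lists, the strongest of each list and the 3 strongest in each list alone, the 5 with the highest background ratio, and those on BMAL1 exons. The regions, gene lists and motifs were chosen with earlier results of these data known. Alternatives were 10 planned ones and 2 added after the data were seen.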

Additional observations from a re-analysis of the deposited data

How the results depend on the processing

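No paired analysis was possible because each group has 1 peak list, and for the same reason no replicate could be left out. The number of motif-free distal regions (2100) came to 909 with peaks of a −log10 p of at least 8, 1182 with a pileup of at least 5, 1267 with a motif window of 200 bp and 1391 more than 5 kb from a start; their share of all regions (25.4%) was 19.4%, 20.3%, 15.3% and 16.8% there, 37.8% with a window of 50 bp, 18.7% with motifs sought in the whole region, and 27.9% with basic transcripts only, an alternative added after the data were seen. The share called in 1 list (79.3%) was 76.6% at a −log10 p of 8, 73.7% at a pileup of 5, 76.6% with peaks merged within 1 kb, 83.2% with summits within 200 bp, and 74.0%, 83.3% and 88.5% with the window of 50 bp, of 200 bp and the whole region. The share in all 4 lists (0.905%) was 0.44% at a −log10 p of 8, 0.476% with summits within 200 bp, and 1.76%, 0.316% and 0.258% with the 3 motif ranges. The BMAL1 share found in both lists (40.9%) was 34.4% with summits within 200 bp and 26.8% with the whole region. For HIF2α (40.1%) it was 51.6% at a −log10 p of 8, 33.0% with summits within 200 bp, and 54.5%, 27.2% and 17.2% with the 3 motif ranges. The share in the strongest 25% (15.7%) was 21.0%, 13.5% and 11.1% with those ranges. Repeated windows (1.57%) were 0.77% at a −log10 p of 8, 0.846% at a pileup of 5, and 8% when 10% of the words sufficed (added after the data were seen). Raised background (54.2%) was 61.5%, 67.3%, 52.0% and 52.1% with a −log10 p of 8, a pileup of 5, the whole region and 5 kb. Counting regions on autosomes only, or without BMAL1 exons, moved none of these beyond its interval.

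The cause of these shifts was not tested. The contrast with distal HRE regions in lists per region and strength kept its direction, with intervals that excluded 0, at a −log10 p of 8, a pileup of 5, the whole region and 5 kb. The contrast with distal AP-1 regions did not: the difference in the share called in 1 list was −2.51 points (−7.48 to 2.92) at a −log10 p of 8 and 9.84 points (6.48 to 13.4) with the whole region. The difference of repeated windows from distal HRE regions had intervals that included 0 at a −log10 p of 8 and a pileup of 5.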
